A study of Mus musculus with 48 samples.

Results

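The 43 genes described here encode proteins of DNA replication and of mitosis, and they were chosen by symbol from the 47643 Ensembl genes listed in each deposited count file. All 43 were found. They fall into 16 genes of S phase, the part of the cell cycle in which DNA is copied, and 27 genes of mitosis. The list was chosen by gene function after the comparison of the compartments, in which Cdc25c stood out, was known, so its genes' values in that comparison are a description without a test. Gene counts came from translating ribosome affinity purification of the dorsal hippocampus of Tg(Aldh1l1-eGFP/Rpl10a) JD130Htz mice, in which ribosomal protein L10a carries a green fluorescent protein under the astrocyte promoter Aldh1l1 and ribosomes with their RNA are pulled down by an antibody to that protein. The full astrocytes (Astro) were compared with their thin branches beside synapses, the perisynaptic astrocytic processes (PAP), of the same 3 animals (C1, C2 and C3), all of which carried the transgene. Every animal and compartment was sequenced as 8 technical replicates, 48 samples in all, which were summed to 6 libraries, so n = 3 per group. No treatment is named, and age, sex and the way the processes were isolated are not given in the sources used here.

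Replication begins when the origin recognition complex, Cdc6 and Cdt1 load the Mcm2 to Mcm7 helicase ring on DNA, cyclin E and its kinase then help to fire the origins, and Cdc45 joins the ring at the moving fork. Pcna is the sliding clamp of the fork, and Rrm1, Rrm2, Tyms and Tk1 make the nucleotides. In mitosis Cdk1 with cyclin A and cyclin B, switched on by Cdc25 phosphatases, drives entry, the Aurora and Polo kinases build the spindle, the Bub and Mad checkpoint watches the chromosomes, and Cdc20 and Ube2c start the destruction of cyclins. Most of these messages are made only in dividing cells, and astrocytes of the mature hippocampus rarely divide. In the adult hippocampus the dividing cells are known to include neural progenitors of the dentate gyrus and oligodendrocyte progenitors.

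The libraries differed in depth and evenness. Astro libraries held 18707844 to 20293538 counts and PAP libraries 1829962 to 2980984, so that 3 counts, taken as the floor of detection, came to 0.148 to 0.160 CPM (counts scaled by the library total to a common size) for Astro and 1.01 to 1.64 CPM for PAP. The quasi-likelihood test of edgeR, at a Benjamini-Hochberg threshold of 0.05, called 5.92% of 14618 tested genes higher in PAP and 15.4% lower. Fitting the animal as a block gave 0.876% and 0.0342%. The 12 astrocyte markers had counts in every library, and their summed share was 2.43% to 2.99% of counts in Astro and 0.408% to 1.46% in PAP. In bulk RNA of this kind, fewer cells or processes of a type and less RNA in each cannot be told apart.

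The S-phase and mitotic genes made up a larger part of the PAP libraries than of the Astro libraries. Summed, the 27 mitotic genes reached 0.00687%, 0.00521% and 0.00878% of the Astro library in animals 1, 2 and 3, and 0.187%, 0.119% and 0.115% of the PAP library. The lowest PAP share had a 95% Wilson interval of 0.111% to 0.119% and the highest Astro share one of 0.00838% to 0.00921%, intervals that cover counting error only. The ratio of the mean shares was 20.2, and within animals it was 27.2, 22.8 and 13.1. For the 16 S-phase genes the summed share was 0.0154%, 0.0135% and 0.0179% in Astro and 0.111%, 0.0298% and 0.0506% in PAP, a ratio of mean shares of 4.09, with 7.21, 2.21 and 2.83 within animals. No PAP library overlapped an Astro library in either share. Leaving out PAP animal 1 lowered the difference in the S-phase share from 0.0483 to 0.0246 percentage points, and left the mitotic difference at 0.110 against 0.133 with all libraries.

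The balance between the classes also differed. Mitotic counts were 0.446, 0.387 and 0.491 times the S-phase counts in Astro animals 1 to 3 and 1.69, 3.98 and 2.28 times in PAP. Each mitotic gene counted equally, whether tested or not, the median level of the 27 was 0.986, 1.12 and 1.79 CPM in Astro and 48.6, 25.6 and 28.8 CPM in PAP. The median of the 14618 tested genes ran from 18.3 to 20.6 CPM in Astro and from 7.64 to 13.1 CPM in PAP. The median S-phase gene stood at 6.92, 5.91 and 8.61 CPM in Astro and at 65.0, 8.18 and 10.6 CPM in PAP, so that its PAP level was high in animal 1 and near the Astro level in the other animals.

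**Figure D1:**
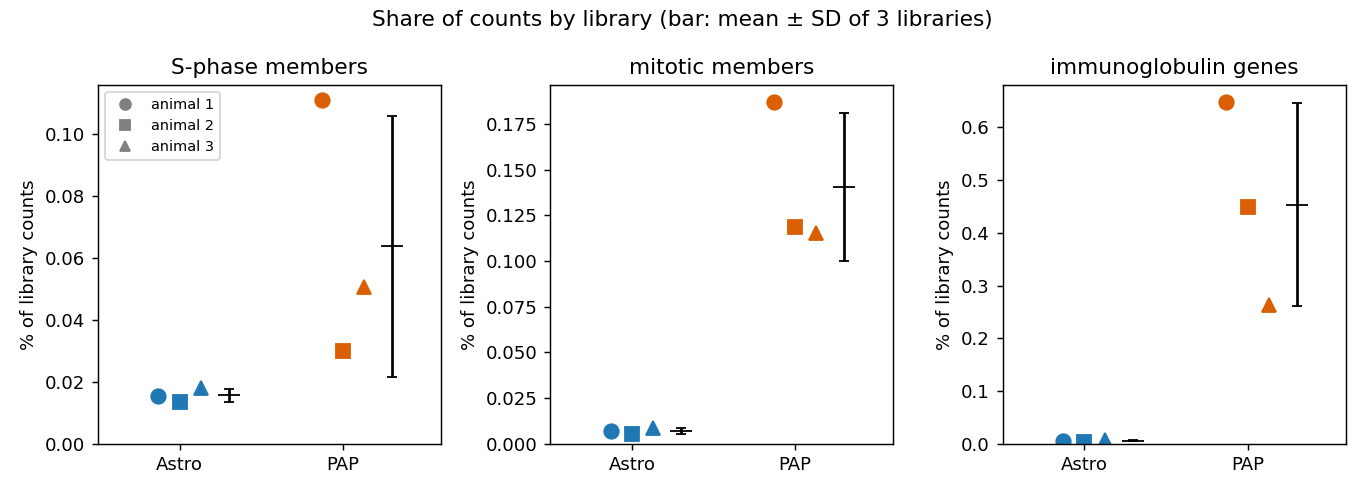
Share of library counts, in percent, of the S-phase genes, the mitotic genes and the immunoglobulin genes in the Astro and PAP libraries. Symbols are animals and the bar beside them is the mean ± SD of 3 libraries; every PAP symbol lies above every Astro symbol in each panel, and animal 1 is the highest PAP library in all 3 classes.

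Each gene was described by whether its 3 PAP values lay above, below or among its 3 Astro values. Of the 27 mitotic genes 14 lay wholly above, 0 lay wholly below and 13 overlapped. Of the 16 S-phase genes 6 lay wholly above, 1 (Cdc45) lay wholly below and 9 overlapped. Among all tested genes 11.7% lay wholly above and 32.7% wholly below, and among the 7407 tested genes with an Astro mean under 20 CPM, a range that holds 41 of the 43 genes, these shares were 12.4% and 32.9%. The edgeR test called 9 of the 22 mitotic genes it could take higher and 0 lower, and 2 of 14 S-phase genes higher and 0 lower, beside 6.9% higher and 21.8% lower among tested genes under 20 CPM in Astro. With the animal as a block 0 of the 36 were called in either direction, and leaving out any 1 Astro library (animal 1, 2 or 3) also left 0 called. Over all genes, 865 were called higher with all libraries and 114, 123 and 135 without Astro animal 1, 2 or 3. Leaving out PAP animal 2 gave 4 S-phase genes and 1108 of all genes higher. The median log2 fold change was 4.95 over the tested mitotic genes, 2.01 over the S-phase genes and -0.53 over all tested genes, and 4.99, 1.71 and -1.63 with the block. Of the 36 tested genes 10 had passed the filter on low counts through the PAP libraries alone, 8 of them mitotic. Passing in this way favours genes that are higher in PAP, so nothing is read from these counts.

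**Figure D2:**
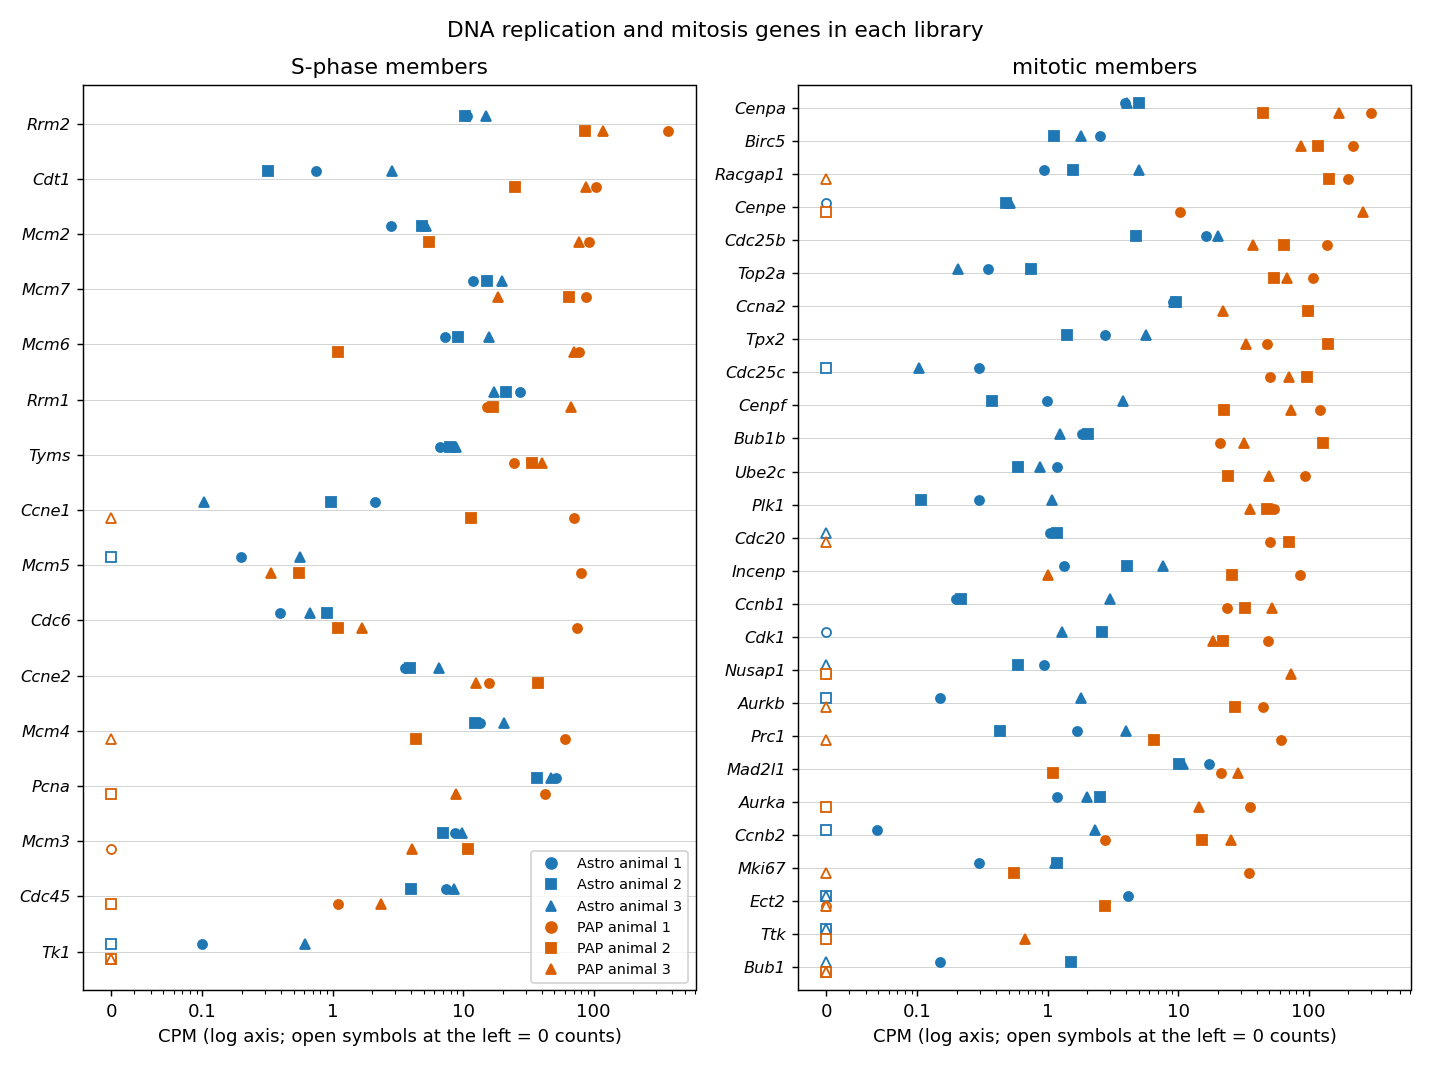
Level of each of the 43 genes in each library, in CPM on a log axis, with S-phase genes on the left, mitotic genes on the right and the highest PAP mean at the top. Blue symbols are Astro, orange symbols PAP, shapes are animals and open symbols at the left edge are libraries with 0 counts; most mitotic genes have their orange symbols to the right of their blue ones, with some PAP libraries at 0.

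The promoters of these genes are shown because the 2 classes carry different short motifs. Whether the motifs bear on the levels in PAP and Astro was not tested. RefSeq promoter windows on GRCm38.p6, from 250 bases before to 50 bases after the start, were given for 36 genes, 14 of S phase and 22 of mitosis. Cdc25c, Aurkb, Tpx2, Ccna2, Incenp, Mcm4 and Ccne2 had none. Motifs were searched on either strand as TTTGAA or TTCGAA for the cell-cycle homology region (CHR), an element known from promoters of late cell-cycle genes, as CCAAT for the NF-Y site, and as TTTGGCGC or TTTCCCGC for the E2F site. TTCGAA reads the same on either strand, and each motif was searched on its own, so matches of different motifs may share letters. At least 1 CHR motif was in 17 of 22 mitotic windows (77.3%) and 3 of 14 S-phase windows (21.4%), against 21.7% of all 27025 genes with a window. CCAAT was in 19 mitotic windows (86.4%) and 9 S-phase windows (64.3%), against 41.1% of all genes. An E2F motif was in 0 mitotic windows and 6 S-phase windows (42.9%), against 1.80% of all genes. All 17 mitotic windows and all 3 S-phase windows with a CHR motif also held CCAAT, a pair found in 8.61% of all genes. These are matches of letters and were not tested for binding.

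Below are 150 bases of 5 mitotic promoters, 120 before to 30 after the start, 5′ to 3′ on the gene's own strand, with the CHR and CCAAT motifs in capitals (as TTCAAA and ATTGG where they lie on the other strand). The first 4 show the motifs in genes whose PAP libraries all lay above Astro, and Birc5, among the highest mitotic genes in PAP, is shown as one without these letters in the stretch.
Top2a (chr11:99024160-99024309, - strand): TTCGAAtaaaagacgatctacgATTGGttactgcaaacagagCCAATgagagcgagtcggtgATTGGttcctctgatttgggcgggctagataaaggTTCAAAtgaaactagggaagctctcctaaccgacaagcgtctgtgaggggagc
Ube2c (chr2:164769809-164769958, + strand): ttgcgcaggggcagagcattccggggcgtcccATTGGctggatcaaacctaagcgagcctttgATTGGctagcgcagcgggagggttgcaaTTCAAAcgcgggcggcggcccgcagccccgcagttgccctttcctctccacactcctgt
Cenpa (chr5:30666766-30666915, + strand): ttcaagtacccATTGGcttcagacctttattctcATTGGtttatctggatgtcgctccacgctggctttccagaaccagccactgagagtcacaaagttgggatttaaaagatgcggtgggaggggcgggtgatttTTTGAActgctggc
Cdk1 (chr10:69352883-69353032, - strand): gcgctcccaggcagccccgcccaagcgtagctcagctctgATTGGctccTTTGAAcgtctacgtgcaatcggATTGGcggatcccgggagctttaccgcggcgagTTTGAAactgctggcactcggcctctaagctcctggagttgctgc
Birc5 (chr11:117849117-117849266, + strand): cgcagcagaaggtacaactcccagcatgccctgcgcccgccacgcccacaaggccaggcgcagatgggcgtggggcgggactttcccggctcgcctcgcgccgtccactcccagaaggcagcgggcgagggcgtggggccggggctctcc
Of the S-phase genes, Mcm6 and Mcm3 show E2F and CCAAT motifs in capitals, and Rrm2, the most abundant gene of its class in PAP, holds CCAAT only.
Mcm6 (chr1:128359676-128359825, - strand): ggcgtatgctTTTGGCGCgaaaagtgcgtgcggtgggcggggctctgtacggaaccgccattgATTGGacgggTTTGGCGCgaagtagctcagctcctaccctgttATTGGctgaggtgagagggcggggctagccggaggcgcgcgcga
Mcm3 (chr1:20820283-20820432, - strand): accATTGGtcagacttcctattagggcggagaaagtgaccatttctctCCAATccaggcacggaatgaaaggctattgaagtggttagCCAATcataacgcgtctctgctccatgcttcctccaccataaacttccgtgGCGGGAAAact
Rrm2 (chr12:24708134-24708283, + strand): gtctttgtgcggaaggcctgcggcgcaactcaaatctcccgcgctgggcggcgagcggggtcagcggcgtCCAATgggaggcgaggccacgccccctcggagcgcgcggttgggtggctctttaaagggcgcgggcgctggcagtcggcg

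Of the S-phase genes, the loading factor Cdt1 (ENSMUSG00000006585, chromosome 8, 122568015 to 122573554, on GRCm38), which brings the Mcm ring to the origin, stood at 0.739, 0.321 and 2.82 CPM in Astro animals 1 to 3 and at 103, 25.1 and 87.2 CPM in PAP. Every PAP value was above every Astro value, and the fitted log2 fold change was 5.69 ± 1.22 (SE). Cdc6, its partner, stood at 0.394, 0.909 and 0.667 CPM in Astro and at 73.8, 1.09 and 1.68 CPM in PAP. Its PAP values lay above Astro in all animals, but those of animals 2 and 3 came from 2 and 5 counts and only animal 1 was far from Astro. Ccne1 and Ccne2 encode E-type cyclins. Ccne2 stood at 3.60, 3.90 and 6.56 CPM in Astro and at 15.8, 37.1 and 12.4 CPM in PAP, with no overlap. Ccne1 stood at 2.12, 0.962 and 0.103 CPM in Astro and at 69.9, 11.5 and 0 CPM in PAP, so that its groups overlapped. Ints8, which shares 17.4% of the exonic bases of Ccne2 on the opposite strand, was also higher in PAP (97.5 against 33.7 CPM on average), and the strand setting of the counting is not given in the sources used here.

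The 6 subunits of the Mcm ring, which work together in equal numbers, did not share one pattern in PAP. Mcm2 stood at 2.81, 4.81 and 5.18 CPM in Astro and at 91.8, 5.45 and 77.2 CPM in PAP. Mcm6 stood at 7.24, 9.09 and 15.8 CPM in Astro and at 76.5, 1.09 and 70.4 CPM in PAP. Both were high in PAP animals 1 and 3, while in animal 2 Mcm2 lay just above its Astro range and Mcm6 below it. Mcm7 stood at 11.9, 15.3 and 19.8 CPM in Astro and at 86.9, 64.9 and 18.4 CPM in PAP. Mcm4 stood at 13.4, 12.3 and 20.4 CPM in Astro and at 60.1, 4.36 and 0 CPM in PAP, where only animal 1 exceeded Astro, and its log2 fold change was 0.32 ± 1.79 (SE) without and -1.90 with the block. Mcm5 was at 80.3 CPM in PAP animal 1 and at 1 count in each of the other PAP libraries, against 0 to 11 counts in Astro. Mcm3 was the only subunit with a lower mean in PAP, at 0, 10.9 and 4.03 CPM against 8.62, 7.00 and 9.79 CPM in Astro. All 6 subunits but Mcm3 had their highest PAP level in animal 1. In Astro, where the libraries lay closer together, the subunits ranked by mean counts per length in the order Mcm4, Mcm7, Mcm6 and Mcm3 at 4.28, 3.54, 2.30 and 2.26 CPM per kilobase of exon, and Mcm2 and Mcm5 followed at 0.613 and 0.0635.

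The fork proteins Pcna and Cdc45 had lower means in PAP than in Astro. Pcna, the sliding clamp, was the most abundant of the 43 genes per length in Astro (18.8 CPM per kilobase), at 51.5, 36.7 and 47.2 CPM, and it stood at 42.6, 0 and 8.72 CPM in PAP, with a log2 fold change of -1.57 ± 1.56 (SE). Cdc45, which activates the helicase, stood at 7.34, 3.96 and 8.51 CPM in Astro and at 1.09, 0 and 2.35 CPM in PAP. It was the only one of the 43 with all PAP values below Astro, and 2 of its 3 PAP libraries were at or under 3 counts, so its PAP level is near what the depth can show.

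Among nucleotide-synthesis genes, Rrm2 (ENSMUSG00000020649, chromosome 12, 24708241 to 24714146), the small subunit of ribonucleotide reductase that is made in S phase, stood at 10.6, 10.4 and 14.9 CPM in Astro and at 369, 85.6 and 117 CPM in PAP. It did not overlap, its log2 fold change was 3.84 ± 0.71 (SE), and it was the most abundant of the 43 genes in PAP per length, at 68.7 CPM per kilobase against 4.32 in Astro. Rrm1, the large subunit of the same enzyme, stood at 27.1, 21.3 and 17.2 CPM in Astro and at 15.3, 16.9 and 66.8 CPM in PAP, with overlap. Tyms, thymidylate synthase, stood at 6.60, 7.86 and 8.72 CPM in Astro and at 24.6, 33.8 and 39.9 CPM in PAP. Its PAP values were the most even of the S-phase genes with counts in PAP, relative to their mean. Tk1, thymidine kinase, was at 0 counts in every PAP library and at 0 to 12 counts in Astro, so both groups were near the floor.

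Of the genes that drive entry into mitosis, Cdc25c had the fewest Astro counts for its PAP level. Cdc25c (ENSMUSG00000044201, chromosome 18, 34732993 to 34751533), a phosphatase that activates Cdk1, had 6, 0 and 2 counts in Astro and 93, 177 and 211 counts in PAP, where it stood at 50.8, 96.6 and 70.8 CPM. Gm3550, which shares 12.7% of the exonic bases of Cdc25c on the opposite strand, stood at 2.20 CPM in PAP against 0.256 CPM in Astro on average. All PAP libraries of Cdc25c were high and all its Astro libraries were near the floor of 3 counts. Its relative Cdc25b was already measurable in Astro, at 16.4, 4.70 and 20.2 CPM, and stood at 138, 64.4 and 37.6 CPM in PAP, with a log2 fold change of 2.40 ± 0.85 (SE). Per length, Cdc25b was above Cdc25c in Astro (3.69 against 0.0270 CPM per kilobase), and the means were 21.5 and 14.8 in PAP. Cdk1 itself stood at 0, 2.62 and 1.28 CPM in Astro and at 48.6, 21.8 and 18.4 CPM in PAP, without overlap.

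The mitotic cyclins lay above Astro in every PAP library, for Ccnb2 in animal 1 by no more than counting error. Ccna2, cyclin A2, which acts in S phase as well, was the most even of the 43 genes in Astro relative to its mean, at 9.07, 9.51 and 9.33 CPM, and stood at 99.5, 99.3 and 22.1 CPM in PAP. Exosc9 shares 12.5% of its exonic bases on the opposite strand and was also higher in PAP (98.9 against 28.2 CPM on average), and how far its reads add to those of Ccna2 was not tested. Ccnb1, cyclin B1, stood at 0.197, 0.214 and 2.97 CPM in Astro and at 23.5, 32.7 and 52.3 CPM in PAP. Ccnb2, cyclin B2, stood at 0.0493, 0 and 2.31 CPM in Astro and at 2.73, 15.3 and 25.2 CPM in PAP, the first of these from 5 counts. In both B-type cyclins animal 3 was the highest library of each compartment.

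The kinases and spindle proteins differed in how even they were. Plk1, the Polo kinase, had 6, 2 and 21 counts in Astro and 99, 88 and 105 counts in PAP, where its mean was 45.8 ± 9.63 CPM (SD, n = 3) against 0.493 ± 0.514 in Astro. Relative to their mean, its PAP values in CPM were the most even of any mitotic gene with counts in PAP. Tpx2, which targets Aurora A to the spindle, stood at 2.76, 1.39 and 5.69 CPM in Astro and at 47.5, 140 and 32.9 CPM in PAP. Both lay above Astro in every PAP library. Aurka, the kinase Aurora A, stood at 1.18, 2.51 and 2.00 CPM in Astro and at 35.5, 0 and 14.4 CPM in PAP. Aurkb, the kinase Aurora B, stood at 0.148, 0 and 1.79 CPM in Astro and at 44.8, 27.3 and 0 CPM in PAP. Incenp, a partner of Aurkb, stood at 1.33, 4.06 and 7.64 CPM in Astro and at 85.8, 25.6 and 1.01 CPM in PAP. In each of these 3 genes the groups overlapped through 1 PAP library, animal 2 for Aurka and animal 3 for Aurkb and Incenp.

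Birc5 (ENSMUSG00000017716, chromosome 11, 117849251 to 117855743) encodes survivin, another partner of Aurkb. It stood at 2.51, 1.12 and 1.79 CPM in Astro and at 219, 117 and 86.5 CPM in PAP, a log2 fold change of 6.11 ± 0.73 (SE). The 8 technical replicates of each PAP library held 15 to 62 counts of it each, so its PAP level did not come from single replicates. Top2a (ENSMUSG00000020914, chromosome 11, 98992943 to 99024189), the topoisomerase that untangles chromosomes, stood at 0.345, 0.748 and 0.205 CPM in Astro and at 108, 54.0 and 67.8 CPM in PAP, a log2 fold change of 7.25 ± 1.00 (SE). Both genes were above Astro in every animal.

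The genes of the centromere differed in how even they were. Cenpa (ENSMUSG00000029177, chromosome 5, 30666777 to 30674830), the histone H3 variant of centromeres, stood at 3.89, 5.02 and 4.05 CPM in Astro and at 301, 44.7 and 171 CPM in PAP. Cenpf stood at 0.986, 0.374 and 3.74 CPM in Astro and at 123, 22.4 and 72.8 CPM in PAP. Cenpe, a kinetochore motor, stood at 261 CPM in PAP animal 3, at 10.4 CPM in animal 1 and at 0 counts in animal 2, against 0, 0.481 and 0.513 CPM in Astro. The value of Cenpe in animal 3 was carried by all 8 technical replicates, with 82 to 107 counts each.

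The checkpoint and exit genes were split. Bub1b stood at 1.82, 2.03 and 1.23 CPM in Astro and at 20.8, 128 and 31.9 CPM in PAP, while its relative Bub1 was at 0 counts in all PAP libraries and at 0 to 28 counts in Astro. Mad2l1, another checkpoint gene, was already at 17.1, 10.2 and 10.9 CPM in Astro and stood at 21.3, 1.09 and 28.8 CPM in PAP, with overlap and a log2 fold change of 0.28 ± 1.19 (SE) without and -0.44 with the block. Ttk, a checkpoint kinase, had 2 counts in 1 PAP library and 0 elsewhere. Ube2c, which hands ubiquitin to the cyclins, stood at 1.18, 0.588 and 0.872 CPM in Astro and at 93.4, 24.0 and 49.3 CPM in PAP, without overlap. Cdc20, which also acts in the destruction of cyclins, stood at 50.3 and 70.9 CPM in PAP animals 1 and 2. It had 0 counts in PAP animal 3, and it stood at 1.03, 1.18 and 0 CPM in Astro.

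Racgap1, Prc1, Nusap1 and Ect2, which act on the spindle or in the splitting of the cell, overlapped between the groups. Racgap1 stood at 198 and 143 CPM in PAP animals 1 and 2 and at 0 counts in animal 3, against 0.936, 1.55 and 5.02 CPM in Astro. Prc1 stood at 61.2, 6.55 and 0 CPM in PAP against 1.68, 0.428 and 3.95 CPM in Astro. Rccd1, which shares 11.1% of the exonic bases of Prc1 on the opposite strand, was also higher in PAP (18.1 against 6.25 CPM on average). Nusap1 had 217 counts in PAP animal 3 and 0 in the others, and Ect2 had 5 counts in PAP animal 2 and 83 counts in Astro animal 1 as its only counts. Mki67, a widely used marker of dividing cells, stood at 35.0 CPM in PAP animal 1, at 1 count in animal 2 and at 0 counts in animal 3, against 0.296 to 1.18 CPM in Astro. Its log2 fold change was 3.58 ± 2.06 (SE) without and -0.31 with the block.

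Levels that were high in one PAP library and at or near 0 in another recurred. At most 3 counts in 1 PAP library and at least 30 CPM in another were seen in 15 of the 43 genes, and in 12 of the 36 tested ones (33.3%) against 22.5% of all tested genes. The same measure says little of Astro, where Pcna alone among the 43 reached 30 CPM, and Ect2 had counts in only 1 Astro library. The technical replicates within a library did not show these gaps. Over the members with at least 80 counts in a library, the dispersion index among its 8 technical replicates, for which counting noise alone gives about 1, ran from 0.827 to 1.28. The labels do not say whether the technical replicates share 1 amplified cDNA, so they show the repeatability of sequencing and not that of the pulldown. PAP animal 1 was the highest library for 25 of the 43 genes, animal 2 for 7 and animal 3 for 9, where 32%, 28.2% and 30.2% of all tested genes were highest in these libraries.

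**Figure D3:**
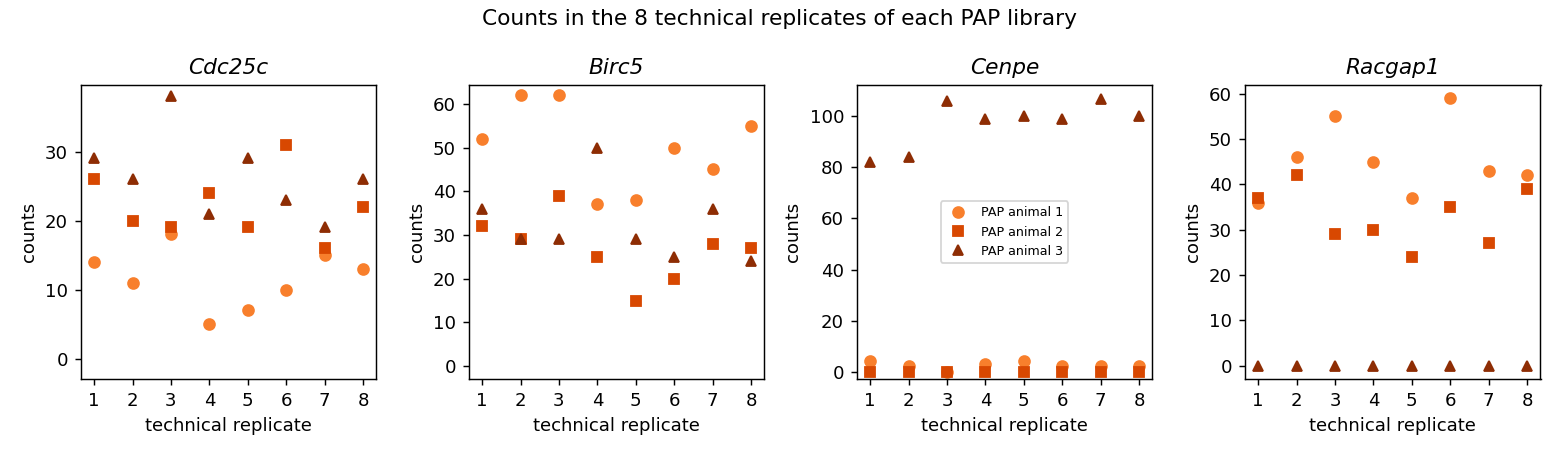
Counts of Cdc25c, Birc5, Cenpe and Racgap1 in each of the 8 technical replicates of the PAP libraries, with 1 symbol per replicate and 1 shape per animal. Cdc25c and Birc5 have counts in all replicates of all animals, Cenpe has 82 to 107 counts in animal 3 and none in animal 2, and Racgap1 has none in animal 3.

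Of 41 further replication genes 36 were tested, and the edgeR test called 2 higher and 0 lower in PAP, and 1 higher and 0 lower with the animal as a block. The share called higher is near the 5.92% of all tested genes, of which 15.4% were called lower. Their median log2 fold change was 0.73, against -0.53 for all tested genes. Dbf4, which activates the kinase that fires origins, rose from 4.24, 4.76 and 7.23 CPM in Astro to 378, 320 and 283 CPM in PAP, which is 5.78 ± 0.41 (SE) on the log2 scale (edgeR adjusted p 0.00211 without and 0.0204 with the block). Lig1, the ligase that joins newly made DNA fragments, rose by 3.58 ± 0.87 on the log2 scale (adjusted p 0.0313 with edgeR, and 0.245 with the block). Of 50 further mitosis genes 38 were tested, and 4 were called higher and 3 lower, with a median of 1.40, and 0 in either direction with the block. With so few genes, these counts are read beside 5.92% higher and 15.4% lower of all tested genes, and nothing is drawn from them for the list. Hmmr, a spindle protein, had 3, 8 and 0 counts in Astro and 149, 62 and 390 counts in PAP. It passed the filter on low counts through PAP alone, which favours a higher PAP level, and its call is not used. Cks1b, a small partner of cyclin-dependent kinases, rose by 4.36 ± 0.51 (adjusted p 0.00914 with edgeR, and 0.0659 with the block), and Cdca8, in the complex of Aurkb, by 4.22 ± 0.98 (0.0267, and 0.206 with the block). Nek2 was also called higher (0.0422, and 0.206 with the block), although its PAP animal 3 held 10 counts against 681 and 415 in the others. Zwint, a kinetochore gene that was abundant in Astro (460 ± 97.0 CPM, SD, n = 3), fell by 1.32 ± 0.36 (adjusted p 0.0461 with edgeR, and 0.206 with the block). Nuf2, a kinetochore gene, and Wee1, a kinase that restrains Cdk1, were at 0 counts in PAP and at least 2.58-fold and 5.02-fold lower; they passed the filter through Astro alone, and their calls are not used.

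Of 32 transcription factors and brakes of the cell cycle 28 were tested, with 6 called higher and 1 lower, beside 5.92% and 15.4% of all tested genes, and 3 higher and 0 lower with the block, where all tested genes gave 0.876% and 0.0342%. E2f2, a factor that switches on S-phase genes, rose from 16.5, 7.32 and 22.2 CPM in Astro to 1413, 748 and 802 CPM in PAP, which is 5.87 ± 0.55 (SE) on the log2 scale (edgeR adjusted p 0.00401 without and 0.0151 with the block). Foxm1, a factor that switches on mitotic genes, stood at 0.690, 0.160 and 1.08 CPM in Astro and at 79.2, 15.3 and 20.5 CPM in PAP. E2f7, of the same family as E2f2, had 2, 0 and 0 counts in Astro and 48, 3 and 53 in PAP. Foxm1 and E2f7 passed the filter through PAP alone, so that their calls are not used. Btg2, an antiproliferative gene, rose from 45.2, 19.8 and 59.4 CPM to 2917, 1162 and 1482 CPM (edgeR adjusted p 0.0071, and 0.0151 with the block). Cdkn1c, an inhibitor of cyclin-dependent kinases, was at 0 counts in PAP and at least 16.3-fold lower, and it passed the filter through Astro alone.

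**Figure D4:**
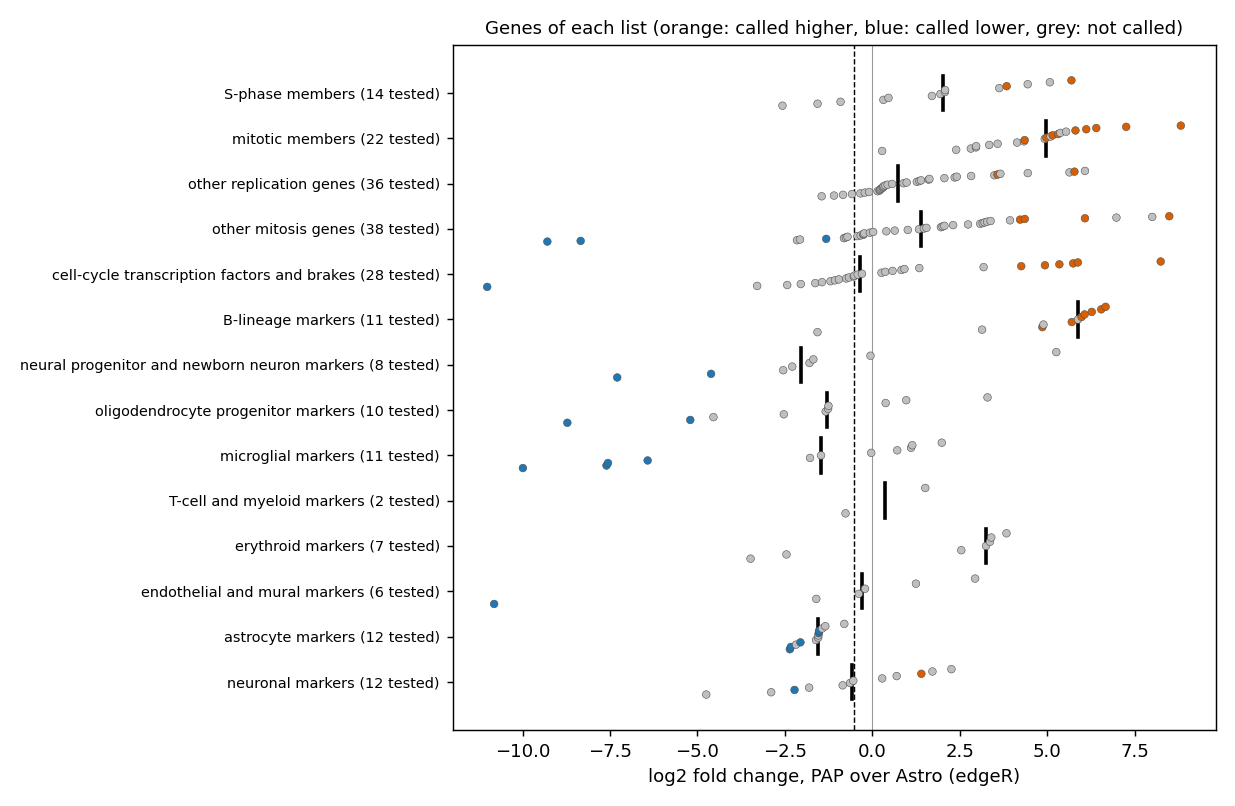
Log2 fold change of PAP over Astro from edgeR for each tested gene of the S-phase, mitotic, other cell-cycle and marker lists. Dots are genes, orange called higher and blue called lower at an adjusted p under 0.05, black bars are list medians, the dashed line is the median of all tested genes (-0.53) and values of genes at 0 counts in PAP depend on the prior count; the mitotic genes (median 4.95) and B-lineage markers (median 5.88) lie farthest to the right.

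Immunoglobulin genes took a larger share of every PAP library than of any Astro library. Summed over 268 immunoglobulin genes, the share was 0.00595%, 0.00404% and 0.00607% in the Astro libraries of animals 1, 2 and 3, and 0.649%, 0.449% and 0.263% in their PAP libraries. Within PAP the order of animals was 1, 2 and 3 from high to low for immunoglobulin and also for mitotic genes (0.187%, 0.119% and 0.115%), and it was 1, 3 and 2 for S-phase genes. The mitotic shares of animals 2 and 3 lay within counting error, with 95% Wilson intervals of 0.114% to 0.124% and 0.111% to 0.119%, so their order is not resolved. Within Astro the order was 3, 1 and 2 in all 3 classes, although the immunoglobulin intervals of animals 3 and 1 overlapped. With 3 libraries per compartment in 2 separate clusters, under the 6 independent samples set as the least for a correlation, no correlation is given. Whether the cell-cycle genes follow the immunoglobulin share was therefore not tested. Gene by gene, the immunoglobulin order over the PAP animals was found in 10 of 27 mitotic genes (37.0%), 4 of 16 S-phase genes (25.0%) and 13.5% of all tested genes, and the reverse order in 2 (7.41%), 2 (12.5%) and 11.3%. Some of these orders are not resolved by counting, as for Ccna2 with 182 counts in each of PAP animals 1 and 2, Mcm5 with 1 count in each of animals 2 and 3, and Mki67 with 1 and 0 counts there, so the tally is a description and nothing is read from it.

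Of 22 B-lineage markers 11 were tested, and 7 were called higher and 0 lower in PAP, 5 of them with the block, beside 5.92% and 15.4% of all tested genes, and 0.876% and 0.0342% with the block. Of the 11 tested, 4 had passed the filter through PAP alone. Over the whole list 9 genes lay wholly above Astro and 5 wholly below (Cd38, Derl3, Cd79a, Vpreb1 and Vpreb3), and 10 to 11 were at 0 counts in each PAP library. The Astro means of Derl3, Cd79a, Vpreb1 and Vpreb3 were 0.857, 0.103, 1.59 and 0.448 CPM, within or under the PAP floor of 1.01 to 1.64 CPM. Their 0 counts in PAP are thus near what the depth can show. Jchain, which links antibody chains in secreting cells, rose from 18.7, 10.0 and 16.2 CPM to 2694, 1272 and 1115 CPM (edgeR adjusted p 0.00248, and 0.0151 with the block). Blnk and Pou2af1, a linker and a coactivator of B cells, rose by 6.27 ± 0.61 and 6.07 ± 0.70 on the log2 scale (edgeR adjusted p 0.00451 and 0.00857, and 0.0223 and 0.0343 with the block). Ms4a1, which encodes a surface protein of B cells, had 31, 16 and 0 counts in Astro and 130, 282 and 104 in PAP, and it is one of those that passed through PAP alone. The whole list took 0.0210% to 0.0278% of counts in Astro and 0.253% to 0.594% in PAP. Most of the Astro share came from Cd38, which stood at 225, 191 and 142 CPM in Astro and at 119, 95.5 and 0.335 CPM in PAP. Pax5, a transcription factor that defines B cells, was at 0 counts in all 6 libraries, and Cd79a was at 2 counts in each Astro library and at 0 in PAP. What part RNA of B-lineage cells had in the levels of the replication and mitosis genes was not tested.

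With few genes per list, the counts of called markers of the cells known to divide in the hippocampus are near those of all tested genes (5.92% called higher and 15.4% lower). Of 16 markers of neural progenitors and newborn neurons 8 were tested, with 0 called higher and 2 lower. Their share was 0.250% to 0.304% of counts in Astro and 0.0448% to 0.142% in PAP. Hopx alone stood at 2428, 1999 and 1828 CPM in Astro animals 1 to 3 and at 161, 740 and 1082 CPM in PAP. The share thus mostly follows Hopx and says little of the other markers. The fitted fold change was below 0 for 7 of the 8 tested markers, with a median of -2.04 on the log2 scale against -0.53 for all tested genes. Wholly below Astro lay 5 genes (Sox2, Sox11, Hopx, Mfap4 and Fabp7). The exceptions wholly above Astro were Nes and Dcx. Nes, which encodes the progenitor filament nestin, stood at 1.48, 0.0535 and 3.49 CPM in Astro and at 138, 10.4 and 60.0 CPM in PAP. Its log2 fold change was 5.26 ± 1.69 (SE), and it was not called (edgeR adjusted p 0.0773). It passed the filter through PAP alone, so that its test is not used. Dcx, a marker of newborn neurons that was not tested, was at 114 CPM in PAP animal 1 and at 2 and 1 counts in the other PAP libraries, against 1, 0 and 0 counts in Astro. What part RNA of progenitors or newborn neurons had in the levels of the replication and mitosis genes was not tested. Sox2, which astrocytes also express, fell by 4.61 ± 0.51 on the log2 scale (adjusted p 0.00741 with edgeR, and 0.0659 with the block). Of 12 markers of oligodendrocyte progenitors 10 were tested, with 0 called higher and 2 lower, and their share was 0.0250% to 0.0301% in Astro and 0.000984% to 0.0231% in PAP. Of 15 microglial markers 11 were tested, with 0 called higher and 4 lower, among them P2ry12, which was at 0 counts in PAP and at least 7.95-fold lower, and Sall1, at 1, 0 and 1 counts in PAP. All 4 passed the filter through Astro alone, as did Pdgfrb and the markers called lower in the progenitor lists other than Sox2, so that those calls are not used. T-cell and myeloid, erythroid, and endothelial and mural markers gave 0, 0 and 0 genes called higher and 0, 0 and 1 (Pdgfrb, at least 14.1-fold lower) called lower, of 2, 7 and 6 tested. Erythroid markers took 0.00674% to 0.0120% of counts in Astro and 0.0490%, 0.0172% and 0.000302% in PAP animals 1 to 3. Of 12 astrocyte markers 5 fell and 0 rose, among them Sox9, Gjb6, Aldoc and Aldh1l1 (log2 fold changes of -2.36, -2.33, -2.06 and -1.53), and of 12 neuronal markers Syt1 rose and Snap25 fell. With the block 0 genes of these other lists were called in either direction.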

How the data were processed

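Per the file headers, each deposited file gives an Ensembl gene and a count, and the whole-number counts sum to a different total in each file, so they were used as raw counts without scaling by the authors. The submitters' processing notes name bcl2fastq 2.18.0.12, Trim Galore 0.4.1, STAR 2.5.2b, SAMtools, HTSeq 0.5.3 and mm10; settings, strand and annotation are not given in the sources used here. Per the labels' protocols, lysates were pre-cleaned on columns without antibody and with nonspecific mouse IgG, and RNA was amplified with a SMART-Seq kit before a Nextera XT library, so reads are not independent molecules and shares could move with amplification.

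Counts of the 8 technical replicates were summed to 1 library for each animal and compartment. Symbols, positions and exonic lengths came from GENCODE M21 on GRCm38, which held 47224 of 47643 IDs (99.12%). The filter was filterByExpr at a minimum count of 10, scaling was by TMM, and genes were tested with the edgeR 4.0.16 quasi-likelihood test in R 4.3.3, with group as the only term, Benjamini-Hochberg adjustment over 14618 genes and a threshold of 0.05. An SE is the absolute log2 fold change over the square root of F. CPM and shares are over the library total. Same-numbered libraries come from the same animal per the labels, and their deviations from the group means correlated at 0.033, 0.019 and -0.027, and a second model held the animal as a blocking term. A gene at 0 counts in a whole group has a fold bound computed against the mean of the floors of 3 counts per library. Alternatives were DESeq2 1.42.0, other scaling, no filter, technical replicates 1 to 4 or 5 to 8, thinning to equal depth and leaving out each library. The edgeR script was run on simulated counts in which only genes expected well above the floor were changed. Changes in genes near the floor were not covered.

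The members and gene lists were chosen with earlier results of these data known. Named members have more than 3 counts in at least 2 PAP libraries or are among the 5 most abundant of their class in Astro, and the other members were named so that each is accounted for, after their values were seen. From the other cell-cycle lists up to 4 called genes per direction with at least 10 CPM in the higher group are named, and up to 4 such genes per marker list. Nes, Dcx, Nuf2, Wee1, the markers named at or near 0 counts and the genes overlapping members were named after their values were seen. Exons of 13 members overlap another gene, and reads of antisense neighbours and of near-identical copies cannot be told apart from those of the member. The labels do not say whether the animals were littermates.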

Additional observations from a re-analysis of the deposited data

How the results depend on the processing

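With the replicate block 0 mitotic and 0 S-phase genes were called, against 9 and 2, all genes called fell to 128 higher and 5 lower, other cell-cycle genes to 4 higher and 0 lower, and marker genes, 8 higher and 15 lower without it, to 5 and 0. The DESeq2 Wald test gave 17 mitotic genes higher, 7 S-phase genes higher and 1 lower, 25 other cell-cycle genes higher and 6 lower, 15 and 23 marker genes, and 1685 and 3456 of all genes. Fits that each left out 1 library gave 0 to 11 mitotic and 0 to 4 S-phase genes higher. They gave 3 to 19 other cell-cycle genes higher and 0 to 9 lower, and 4 to 11 marker genes higher and 0 to 24 lower. Over all genes they gave 114 to 1251 higher and 1 to 3335 lower. The 3 fits without an Astro library (animal 1, 2 or 3) called 0 mitotic and 0 S-phase genes, and 114, 123 and 135 of all genes higher. No filter on low counts gave 571 higher and 1549 lower genes, 6 marker genes higher and 10 lower, and equal depth gave 964 lower genes with 8 marker and 1 other cell-cycle gene lower. The cause was not tested. Among the members, the fitted log2 fold change turned from above to below 0 with the block for Mki67 (3.58 to -0.31), Mcm4 (0.32 to -1.90) and Mad2l1 (0.28 to -0.44). Depth limits genes listed at 0 in PAP, where 3 counts equal 1.01 to 1.64 CPM.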
